A study of Mus musculus with 30 samples.

Results

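The comparison described here is between DC3.2 cells labelled IRF2KO and WT cells of the same line after 2 h of interferon alpha (IFNα) at 5000 U/mL. DC3.2 is a mouse dendritic cell line. The members are the 2 IRF2KO and the 2 WT libraries under IFNα, 4 of the 30 libraries in the series, chosen by their labels with no measured value used. In the sample titles IRF2KO reads IRF2sg and WT reads nosg, and the labels describe no control guide, so targeting itself and loss of IRF2 cannot be told apart. Other groups are used where they bear on this difference: WT and IRF2KO cells in media alone, IRF1KO cells and DKO cells (IRF1 and IRF2 both targeted) under the same IFNα dose and time, and IRF1KO cells in media. One further WT and 1 further IRF2KO library under IFNα, without a replicate, were quantified against another set of transcripts. Whether a line is 1 clone, and whether the 2 libraries of a group come from separate cultures, is not given in the labels, and the p-values then reflect only how these samples vary, which may be technical.

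Type I interferons such as IFNα bind a receptor whose kinases activate STAT proteins. Together with IRF9 these form ISGF3, which binds interferon-stimulated response elements, repeats of GAAA spaced by a pair of bases, and switches on antiviral genes. IRF1 and IRF2 bind closely related elements. IRF1 is itself induced by interferon and is mostly an activator. IRF2 is present in resting cells and was described first as a repressor that competes with IRF1, while at some promoters it acts as an activator.

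RNA sequencing gave TPM values, each transcript's share of its library after division by its length, and the read depth behind them is unknown. From 10964 to 11045 genes had at least 1 TPM in the 4 libraries. The correlation across genes of log2(TPM + 1) between replicates was 0.993 in both groups (genes are not independent replicates). The 2 WT libraries still stood at least 2-fold apart on the log2(TPM + 1) scale for 457 of 11842 genes tested, 342 of them higher in replicate 1, and the 2 IRF2KO libraries did so for 449 genes. One such entry is Park2, named here after its values were seen, with 11593 and 5625 TPM in WT and 1879 and 4155 TPM in IRF2KO. It was not called, and what its reads stand for could not be settled from the deposited table. Of the dendritic cell markers, Itgax was at 43.3 to 58.2 TPM, Batf3 at 49.7 to 68.8 and Irf8 at 63.3 to 74.1 in the 4 libraries, whereas Flt3 and Cd209a were at 0 and Clec9a, Xcr1, Zbtb46 and Ccr7 stayed under 1 TPM. Cd24a had 6.5 and 5.38 TPM in WT and 2.57 and 2.24 TPM in IRF2KO (−1.02), a difference called only with the replicate block (adjusted p = 0.028, and 0.085 without). The summed dendritic cell list was 905 and 1006 TPM in WT and 1040 and 852 TPM in IRF2KO, with 9 of 16 markers at 1 TPM or more in any library. Macrophage and monocyte markers were present too (11 of 15, summed 3631 and 3540 TPM in WT and 3747 and 3265 TPM in IRF2KO), led by Lyz2 and Cd68, with Adgre1 at 0. Lymphocyte markers summed to at most 0.2 TPM, and of 14 fibroblast and stromal markers only Fn1 reached 1 TPM.

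The targeted transcript was still present. Irf2 (chromosome 8, 46739732 to 46847458 on GRCm38) had 42.1 and 30.5 TPM in WT and 26.8 and 28.5 TPM in IRF2KO under IFNα. The IRF2KO libraries were both below the WT libraries, by −0.36 ± 0.14 on log2(TPM + 1) (SE, adjusted p = 0.42, limma). An edit that ends the protein need not lower its mRNA, so this level does not check the label.

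Under IFNα, 74 genes (0.625% of 11842 tested) were higher and 41 (0.346%) lower in IRF2KO than in WT. A gene was called when its Benjamini-Hochberg adjusted p in a limma fit on log2(TPM + 1) fell under 0.05. Among the called genes, the largest rises were in the antiviral genes Rsad2 and Cmpk2 and the guanylate-binding proteins Gbp5, Gbp2, Gbp3 and Gbp4. The largest falls among the called genes were in Ctso, Acadl, Gsdmd and Arsb, a lysosomal protease, a fatty acid dehydrogenase, the pore protein of pyroptosis and a lysosomal sulfatase. Differences among the higher genes ran from 0.39 to 5.17 with a median of 0.97, and 35 of the 74 were at least 2-fold. Among the lower genes they ran from −0.44 to −3.19 with a median of −1.28, and 28 of the 41 were at least 2-fold. The median of all genes was 0.06. In bulk RNA, fewer cells with a transcript and less of it per cell cannot be told apart. The libraries of the 2 groups did not overlap for any of the 115 called genes (0.971%), as for 31.2% of all genes tested. With the replicate number as a block, 171 (1.44%) were higher and 83 (0.701%) lower, and all 115 genes stayed called. Leaving out 1 library gave 29 higher and 25 lower without IRF2KO replicate 1, 68 and 27 without IRF2KO replicate 2, 43 and 28 without WT replicate 1, and 43 and 27 without WT replicate 2.

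**Figure D1:**
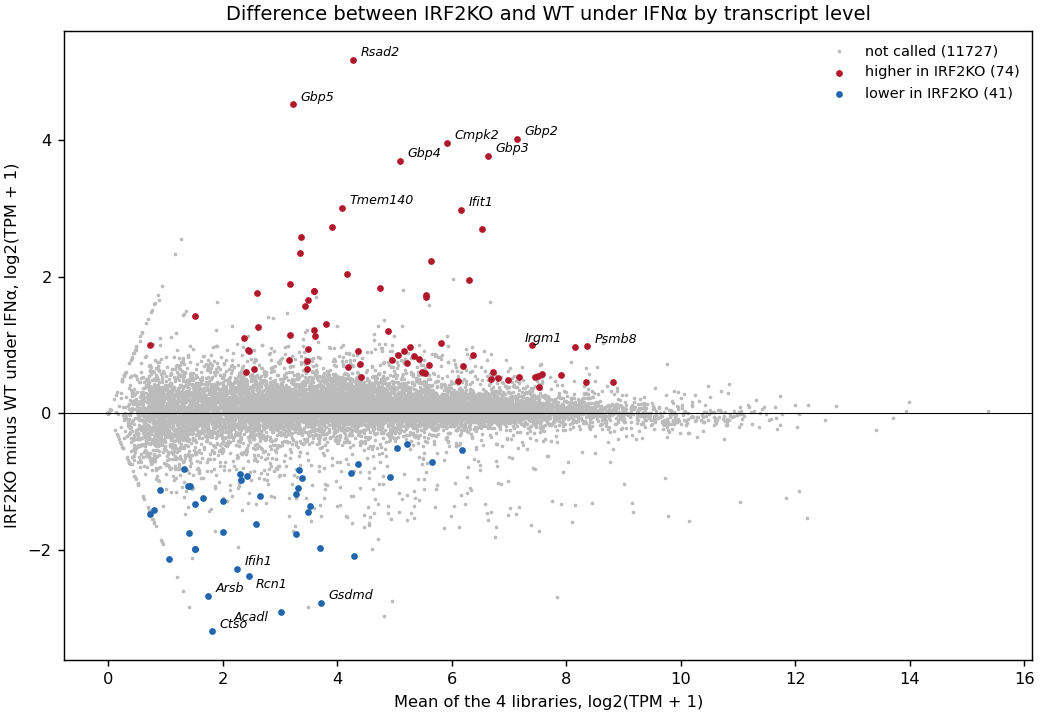
Each point is 1 of 11842 genes, with its mean log2(TPM + 1) over the 4 libraries on the x axis and the IRF2KO minus WT difference under IFNα on the y axis. The 74 higher genes are red and reach 5.17 (Rsad2), the 41 lower genes are blue and reach −3.19 (Ctso), and grey points were not called.

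Rsad2 encodes viperin, an enzyme that makes a chain-terminating nucleotide against viral RNA synthesis. It was listed at 0 in both WT libraries in media, at 1.11 and 0.63 TPM in IRF2KO in media and at 2.35 and 2.12 TPM in WT under IFNα. In IRF2KO under IFNα it reached 139.7 and 95.6 TPM. Both IRF2KO libraries therefore stood far above WT, with a difference of 5.17 ± 0.22 (adjusted p = 1.85e-09). Its neighbour Cmpk2, a mitochondrial nucleotide kinase, lies on the other strand of chromosome 12 (26469204 to 26479837, against 26442746 to 26456452 for Rsad2). Cmpk2 had 13.6 and 15.2 TPM in WT and 281 and 201 TPM in IRF2KO under IFNα, a difference of 3.95 ± 0.24 (adjusted p = 6.73e-08). In media it was at 0.04 and 0.09 TPM in WT and at 1.99 and 1.08 TPM in IRF2KO.

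The Ifit genes, whose products bind viral RNA that lacks the marks of host mRNA, rose together. Ifit1 had 23.8 and 25.5 TPM in WT and 269 and 150.4 TPM in IRF2KO under IFNα (2.98 ± 0.22, adjusted p = 7.7e-07). Ifit2 had 41.5 and 37.1 TPM in WT and 198 and 120.5 TPM in IRF2KO (1.95 ± 0.23, adjusted p = 0.000136). Ifit3 had 23.3 and 21 TPM in WT and 132 and 86.8 TPM in IRF2KO (2.23 ± 0.24, adjusted p = 5.41e-05). In each of these genes replicate 1 was the higher IRF2KO library, and the lower one still exceeded both WT libraries. The paralogs Gm14446 (now Ifit1bl1) and I830012O16Rik (now Ifit3b) rose by 2.73 ± 0.19 and 2.34 ± 0.22, with 44.7 and 32.0 TPM and 29.7 and 16.4 TPM in IRF2KO. These copies are similar in sequence, and how their shared reads were divided could move levels between them. In media all Ifit entries named here except Ifit2 were under 1 TPM in both genotypes. Ifit2 had 4.11 and 4.55 TPM in WT and 3.2 and 4.15 TPM in IRF2KO in media.

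The Mx genes encode GTPases that block viral nucleocapsids. GENCODE lists mouse Mx2 as a polymorphic pseudogene, and whether these cells make a working protein from either gene was not tested. Mx1 had 6.54 and 4.32 TPM in WT and 21.9 and 16.5 TPM in IRF2KO under IFNα (1.66 ± 0.27, adjusted p = 0.0031). Mx2 had 5.86 and 5.24 TPM in WT and 22.8 and 20.3 TPM in IRF2KO (1.78 ± 0.19, adjusted p = 4.2e-05). Both were listed at 0 in WT in media. Mx1 was no longer called without IRF2KO replicate 1 (1.47) or without WT replicate 2 (1.41).

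Whether the IRF2KO difference itself changed with IFNα was tested as an interaction, (IRF2KO minus WT under IFNα) minus (IRF2KO minus WT in media). It shares the 4 IFNα libraries with the comparison above. It was called higher for 8 genes (0.0676%) and lower for 0, with 394 genes (3.33%) at an unadjusted p under 0.05. The 8 genes were Rsad2 (4.28 ± 0.31), Cmpk2 (2.73 ± 0.33), Gm14446 (2.62 ± 0.26), Ifit1 (2.53 ± 0.32), I830012O16Rik (2.23 ± 0.31), Ifit2 (2.15 ± 0.33), Ifit3 (2.04 ± 0.34) and Trim21 (1.36 ± 0.23). Trim21, an antibody receptor and ubiquitin ligase of the cytosol, had 2.45 and 3.47 TPM in WT and 6.90 and 6.11 TPM in IRF2KO under IFNα, against 0.84 and 0.76 TPM and 0.35 and 0.32 TPM in media. The IRF2KO libraries of Trim21 were thus the lower ones in media and the higher ones under IFNα, although the media difference was not called (−0.43, adjusted p = 0.51). Its difference under IFNα (0.93, adjusted p = 0.0074) was not called without IRF2KO replicate 1 (0.86) or without WT replicate 1 (0.75). In the interaction, the call of Trim21 was lost in 7 of 8 leave-one-out fits (1.18 to 1.44) and after quantile normalisation (1.31). Ifit2 lost its call in 6 of the 8 (1.79 to 2.22), Ifit3 in 6 (1.74 to 2.13) and I830012O16Rik in 1 (2.10, without WT replicate 1 under IFNα), while Rsad2, Cmpk2, Gm14446 and Ifit1 kept theirs in all 8. The calls depend on the scale, and 5 of the 8 genes were under 1 TPM in all 4 media libraries. With a pseudocount of 0.1 in place of 1, none of the 8 was called, with Rsad2 at 2.40, Cmpk2 at 0.77 and Ifit1 at 1.37. Leaving out 1 library gave 4 to 8 higher genes, the fewest without WT replicate 1 (4), and 5 without IRF2KO replicate 1 and without either WT library in media. The median of all genes in this interaction was 0.14, and 0.02 after median-ratio scaling, where 8 genes were again called.

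**Figure D2:**
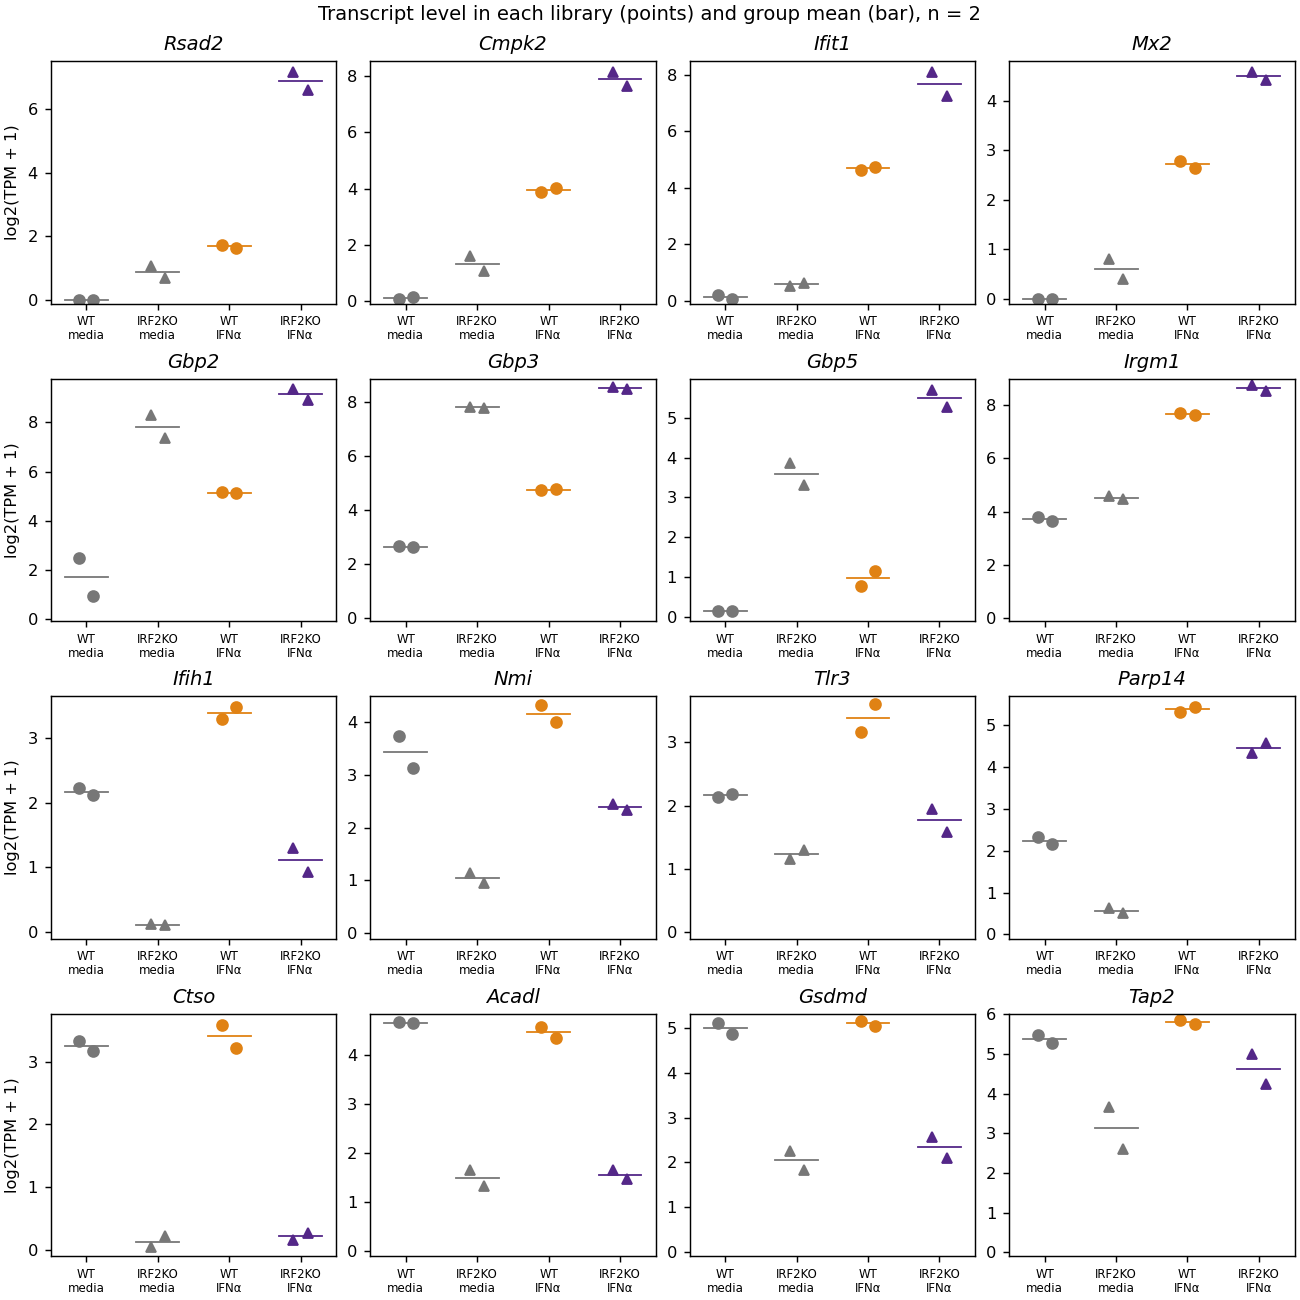
Transcript level as log2(TPM + 1) of 16 genes in the 2 libraries of each group (points, with the group mean as a bar), for WT and IRF2KO cells in media (grey) and under IFNα (orange and purple). Rsad2, Cmpk2, Ifit1 and Mx2 are higher in IRF2KO under IFNα than in the other 3 groups and at most 1.99 TPM in media, Gbp2, Gbp3 and Gbp5 are high in IRF2KO in both conditions, and Ctso, Acadl and Gsdmd are low in IRF2KO in both.

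Guanylate-binding proteins are interferon-induced GTPases that coat pathogen vacuoles and bacteria in the cytosol. Of 11 in the list, 10 were tested and 9 were higher in IRF2KO, beside 0.625% of all genes, with 0 lower and a median difference of 2.37. Gbp10, under 0.5 TPM in all 4 libraries, was not called. Gbp2 had 34.8 and 33.7 TPM in WT and 659 and 488 TPM in IRF2KO (4.01 ± 0.41, adjusted p = 3.14e-05). Gbp3 had 25.5 and 26.5 TPM in WT and 377 and 357 TPM in IRF2KO (3.77 ± 0.25, adjusted p = 1.77e-07). Gbp5 had 0.73 and 1.22 TPM in WT and 51.1 and 37.9 TPM in IRF2KO (4.52 ± 0.22, adjusted p = 8.57e-09). All 6 of these IRF2KO values lay above every WT value of the same gene. Gbp4 rose by 3.69 ± 0.28 and Gbp7 by 2.69 ± 0.16, from 7.96 and 9.21 TPM to 123 and 122 TPM and from 33.5 and 37.7 TPM to 257 and 215 TPM. Gbp9 (2.04), Gbp6 (1.90), Gbp8 (1.79) and Gbp11 (0.91) completed the group. Gbp2, Gbp3, Gbp5 and Gbp7 lie side by side on chromosome 3 (142493978 to 142638008), and Gbp4, Gbp6 and Gbp9 on chromosome 5. Gbp4 and Gbp9 overlap on the same strand, so their reads may not be fully separable.

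In contrast to the Ifit genes, these GTPases were already high in IRF2KO without interferon. In media Gbp2 had 4.48 and 0.92 TPM in WT and 313 and 165 TPM in IRF2KO, and Gbp3 had 5.34 and 5.19 TPM in WT and 226 and 220.3 TPM in IRF2KO. For Gbp2 and Gbp3, both IRF2KO libraries in media lay above both WT libraries under IFNα. Of the 10 tested members, 7 were also called higher in media, where 0.279% of all genes were. The interaction with IFNα was −2.12 for Gbp2 and −1.39 for Gbp3, and neither was called (adjusted p = 0.91 for both). The same pattern was seen in Tmem140, a membrane protein gene, with 5.13 and 4.87 TPM in WT and 49.8 and 44.8 TPM in IRF2KO under IFNα (3.01 ± 0.37) and a difference of 3.14 in media. The entry named mmu-mir-155* had 2.85 and 3.64 TPM in WT and 26.2 and 22.4 TPM in IRF2KO under IFNα (2.58 ± 0.27). Its difference in media had the same sign. That entry carries the name of a short RNA, and reads of a longer transcript across it cannot be told apart from it.

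**Figure D3:**
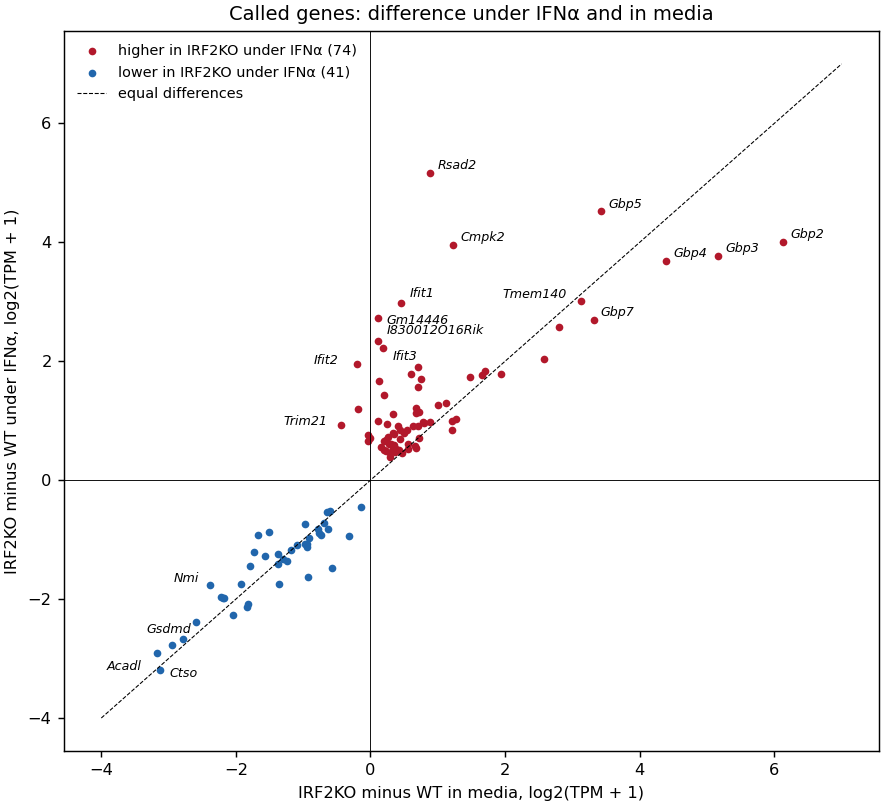
The 115 called genes, with the IRF2KO minus WT difference in media on the x axis and under IFNα on the y axis, both on log2(TPM + 1), and a dashed line where the 2 are equal. Rsad2, Cmpk2 and the Ifit genes stand far above the line (Rsad2 at 0.89 and 5.17), Gbp2 below it (6.14 and 4.01), and the lower genes lie along it.

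Immunity-related GTPases act on the membranes of pathogen vacuoles. Of 15 tested, 4 were higher in IRF2KO and 0 lower, beside 0.625% and 0.346% of all genes, with a median of 0.49. Irgm1, a regulator of the family, had 209 and 197 TPM in WT and 427 and 369 TPM in IRF2KO (0.97 ± 0.13, adjusted p = 0.00042). Tgtp2 had 27.2 and 22.7 TPM in WT and 91.0 and 76.2 TPM in IRF2KO (1.70 ± 0.30, adjusted p = 0.0084), and a near-identical copy of this gene makes its level uncertain. Igtp (1.0 ± 0.20) and Ifi47 (1.03 ± 0.17) were the other two. The call of Igtp was lost whichever of the 4 libraries was left out (0.97 to 1.03). Ifi47 (0.90 and 1.0) and Tgtp2 (1.58 in both) were not called without IRF2KO replicate 1 or without WT replicate 2.

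To show what lies upstream of the called genes with the largest rises and falls, promoters from 250 bases before to 50 after the start site are given from RefSeq (build GRCm38.p6), 5′ to 3′ on the gene's strand. Capitals mark GAAA-NN-GAAA or its reverse complement TTTC-NN-TTTC, the core of the element that interferon regulatory factors bind. Gbp5, Gbp2 and Rsad2 are the top rises and Ctso, Acadl and Arsb the top falls among called genes with an entry in the RefSeq table.
Rsad2 (chr12:26456403-26456702, minus strand): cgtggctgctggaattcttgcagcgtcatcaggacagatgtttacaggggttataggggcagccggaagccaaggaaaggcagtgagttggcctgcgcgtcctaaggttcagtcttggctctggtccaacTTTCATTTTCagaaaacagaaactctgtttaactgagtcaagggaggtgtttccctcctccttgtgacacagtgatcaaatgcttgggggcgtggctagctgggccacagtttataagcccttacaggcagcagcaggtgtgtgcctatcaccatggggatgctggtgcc
Gbp5 (chr3:142496684-142496983, plus strand): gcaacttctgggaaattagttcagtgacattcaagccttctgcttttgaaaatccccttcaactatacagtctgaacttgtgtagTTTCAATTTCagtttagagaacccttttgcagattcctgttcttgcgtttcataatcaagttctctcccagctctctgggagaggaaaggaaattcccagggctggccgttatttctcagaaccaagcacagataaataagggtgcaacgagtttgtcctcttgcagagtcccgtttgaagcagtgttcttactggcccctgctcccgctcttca
Gbp2 (chr3:142620413-142620712, plus strand): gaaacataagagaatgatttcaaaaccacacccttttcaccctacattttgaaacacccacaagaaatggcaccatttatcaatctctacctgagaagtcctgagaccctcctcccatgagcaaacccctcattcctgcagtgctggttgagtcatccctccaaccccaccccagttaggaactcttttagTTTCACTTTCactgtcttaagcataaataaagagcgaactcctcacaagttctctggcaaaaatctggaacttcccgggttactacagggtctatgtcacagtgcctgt
Ctso (chr3:81932351-81932650, plus strand): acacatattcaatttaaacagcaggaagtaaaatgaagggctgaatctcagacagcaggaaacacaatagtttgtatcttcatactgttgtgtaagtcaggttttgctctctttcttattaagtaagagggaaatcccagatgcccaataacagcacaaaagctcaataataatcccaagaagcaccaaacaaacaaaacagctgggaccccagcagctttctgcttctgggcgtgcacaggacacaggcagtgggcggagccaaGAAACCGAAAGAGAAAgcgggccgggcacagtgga
Acadl (chr1:66863260-66863559, minus strand): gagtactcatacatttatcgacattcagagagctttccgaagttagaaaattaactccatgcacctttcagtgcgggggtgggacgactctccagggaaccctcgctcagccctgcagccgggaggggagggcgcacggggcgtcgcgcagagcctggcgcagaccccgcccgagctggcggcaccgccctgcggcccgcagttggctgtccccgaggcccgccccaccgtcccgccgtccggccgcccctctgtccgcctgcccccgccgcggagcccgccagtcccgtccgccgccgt
Arsb (chr13:93771429-93771728, plus strand): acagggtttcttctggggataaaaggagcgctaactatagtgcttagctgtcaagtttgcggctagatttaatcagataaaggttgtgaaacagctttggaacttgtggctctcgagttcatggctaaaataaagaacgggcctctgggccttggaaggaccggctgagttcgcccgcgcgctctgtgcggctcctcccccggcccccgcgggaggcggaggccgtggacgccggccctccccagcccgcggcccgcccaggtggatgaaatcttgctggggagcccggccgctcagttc

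The match began at −120 from the start site in Rsad2, at −165 in Gbp5 and at −59 in Gbp2, and Ctso held 2 overlapping matches just after its start site, at +16 and +22. Acadl and Arsb held none in this window. Searched on both strands, GAAA-NN-GAAA was present in 3.44% of 32851 promoters of the same length and in 3.22% of those of the genes tested. Of the 72 promoters found for 55 of the 74 higher genes, 16 (22.2%) held it, and of the 34 promoters found for 27 of the 41 lower genes, 4 (11.8%) did. The STAT-type motif TTCNNNGAA, its own reverse complement, was present in 8.30% of all promoters, in 12.5% of those of the higher genes and in 11.8% of those of the lower genes. Matches in these windows are letters only, and binding was not measured.

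Of 28 tested genes of nucleic acid and Toll-like receptor sensing, 3 were lower in IRF2KO, beside 0.346% of all genes. None was higher, 25 were not called, and the median was 0.04. Ifih1, which encodes the RNA sensor MDA5, had 8.83 and 10.1 TPM in WT and 1.46 and 0.91 TPM in IRF2KO under IFNα (−2.27 ± 0.15, adjusted p = 1.77e-07). In media it had 3.66 and 3.32 TPM in WT and 0.09 and 0.08 TPM in IRF2KO. Both IRF2KO libraries under IFNα thus lay below the WT libraries in media. Tlr3, an endosomal receptor for double-stranded RNA, had 7.99 and 11.2 TPM in WT and 2.87 and 2.00 TPM in IRF2KO (−1.62 ± 0.19, adjusted p = 0.000154). Dhx58, which encodes LGP2, a partner of MDA5, had 14.96 and 12.3 TPM in WT and 7.33 and 4.64 TPM in IRF2KO (−1.09 ± 0.19, adjusted p = 0.0076). Dhx58 was not called without IRF2KO replicate 2 (−0.81) or without WT replicate 1 (−0.96). The sensor gene Ddx58 (RIG-I) had 19.6 and 20.7 TPM in WT and 13.3 and 10.8 TPM in IRF2KO and was not called (−0.71 ± 0.19, adjusted p = 0.15).

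Of 67 tested ISGF3-type antiviral genes, 13 were higher and 4 lower, beside 0.625% and 0.346% of all genes. The other 50 were not called, and the median was −0.05 against 0.06 for all genes. The 4 lower genes were Ifi27, Nmi, Oasl2 and Parp14, the last pair named after their values were seen. Nmi, a partner of STAT proteins, had 18.95 and 14.97 TPM in WT and 4.45 and 4.02 TPM in IRF2KO (−1.77 ± 0.20, adjusted p = 7.02e-05). Ifi27, a gene of a mitochondrial interferon-induced protein, had 41.5 and 37.6 TPM in WT and 10.6 and 6.82 TPM in IRF2KO (−2.09 ± 0.28). Parp14, an ADP-ribosyltransferase, had 38.8 and 42.7 TPM in WT and 19.1 and 22.9 TPM in IRF2KO (−0.93 ± 0.20, adjusted p = 0.039). Oasl2, a gene of the oligoadenylate synthetase family, had 14.9 and 11.99 TPM in WT and 7.01 and 6.01 TPM in IRF2KO (−0.94 ± 0.16). Well-known members of the list were not called: Isg15 had 84.0 and 59.9 TPM in WT and 132 and 98.7 TPM in IRF2KO (adjusted p = 0.63), Usp18 had 80.4 and 68.0 against 144 and 112 TPM (0.15), and Rtp4 had 77.7 and 69.4 against 49.7 and 41.0 TPM (0.36).

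Reading the same question from genes chosen in other cells, 96 genes (0.811%) rose with IFNα in IRF1KO cells. The IRF1KO libraries are in neither group of the IRF2KO and WT comparison, but they enter its estimate of the spread. Of the 96 genes, 18 (18.8%) were higher in IRF2KO than in WT under IFNα and 6 (6.25%) lower, beside 0.625% and 0.346% of all genes. The other 72 were not called, and the median of the 96 was 0.10, with quartiles of −0.17 and 0.52. Besides genes named above, the 18 included Bst2, which encodes tetherin, a protein that holds virions at the cell surface, with 186 and 209 TPM in WT and 286 and 293 TPM in IRF2KO (0.55 ± 0.11). The 6 were Dhx58, Ifih1, Oasl2, Parp14, Tlr3 and the entry mKIAA1554.

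Low levels in IRF2KO were not limited to IFNα. In media all 41 lower genes had the same sign, as did 61.2% of all genes. Of the 41, 32 were called lower there, beside 0.557% of all genes. Ctso, Acadl, Arsb and Rcn1 are among the 41. Ctso, which encodes cathepsin O, had 11.02 and 8.35 TPM in WT and 0.12 and 0.21 TPM in IRF2KO under IFNα (−3.19 ± 0.17, adjusted p = 1.4e-08). In media it had 9.10 and 7.97 TPM in WT and 0.03 and 0.16 TPM in IRF2KO. Its IRF2KO levels were close to 0 in all 4 libraries. Acadl, the long-chain acyl-CoA dehydrogenase of fatty acid oxidation, had 23.1 and 19.5 TPM in WT and 2.15 and 1.77 TPM in IRF2KO under IFNα (−2.91 ± 0.26, adjusted p = 5.84e-06). Acadl was the only 1 of 18 tested genes of fatty acid oxidation to be called, and Ctso the only 1 of 13 cathepsin and lysosomal protease genes. Of all genes, 0.971% were called, and 1 call in a list of this size is no result about the list. Arsb had 6.04 and 9.14 TPM in WT and 0.26 and 0.40 TPM in IRF2KO (−2.67 ± 0.23, adjusted p = 5.28e-06). Rcn1, which encodes a calcium-binding protein of the endoplasmic reticulum, had 12.6 and 10.5 TPM in WT and 1.59 and 1.24 TPM in IRF2KO (−2.38 ± 0.16, adjusted p = 2.18e-07). The difference between IFNα and media was called for none of these 4 genes in WT or in IRF2KO, where 1.04% and 1.39% of all genes were called.

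Genes of cell death effectors were among the called genes in both directions. Gsdmd (chromosome 15, 75862327 to 75867408), the pore-forming gasdermin of pyroptosis, had 34.8 and 32.3 TPM in WT and 4.89 and 3.31 TPM in IRF2KO under IFNα (−2.78 ± 0.24, adjusted p = 5.73e-06). Its levels in media were alike, at 33.7 and 28.5 TPM in WT and 3.80 and 2.56 TPM in IRF2KO. Bid, a BH3-only protein gene, had 101 and 110.2 TPM in WT and 151 and 145 TPM in IRF2KO (0.49 ± 0.10, adjusted p = 0.03), and its call was lost whichever library was left out (0.42 to 0.55).

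In antigen presentation, 1 of 7 tested immunoproteasome and PA28 genes, 1 of 11 class I genes and 0 of 8 genes of peptide transport, loading and trimming were called, beside 0.971% of all genes. Psmb8, the LMP7 subunit of the immunoproteasome, had 238 and 231 TPM in WT and 532 and 404 TPM in IRF2KO (0.98 ± 0.12, adjusted p = 0.00022). With the replicate block Psme1, a PA28 subunit, was also called, at 147 and 129 TPM in WT and 100.8 and 71.9 TPM in IRF2KO (−0.69, adjusted p = 0.0076 with the block and 0.19 without). Psmb9 had the lowest difference of the 7 genes (−0.73), opposite in sign to Psmb8, and was not called in either fit. H2-M3, a class I molecule that presents formylated peptides, had 30.2 and 26.0 TPM in WT and 56.0 and 39.6 TPM in IRF2KO (0.73 ± 0.14, adjusted p = 0.017). It was not called without IRF2KO replicate 1 (0.49) or without WT replicate 2 (0.63). Of the 8 genes of peptide transport, loading and trimming, 4 had an unadjusted p under 0.05 in the limma fit, as did 9.25% of all genes. Tap2 (chromosome 17, 34203527 to 34216321), one chain of the peptide transporter, had 56.8 and 53.3 TPM in WT and 30.9 and 17.8 TPM in IRF2KO (−1.19 ± 0.29, adjusted p = 0.072). It was called with the replicate block (adjusted p = 0.015) and without IRF2KO replicate 1 (−1.58). Its partner Tap1 had 57.8 and 58.5 TPM in WT and 74.9 and 60.8 TPM in IRF2KO and was not called (0.21, adjusted p = 0.80). Tapbp, the peptide loading factor tapasin, was called with the block only (0.71 ± 0.29, adjusted p = 0.026 with the block and 0.46 without). The same held for Cd274, which encodes PD-L1, with 64.4 and 54.9 TPM in WT and 122 and 90.3 TPM in IRF2KO (0.81 ± 0.24, adjusted p = 0.0054 with the block and 0.19 without). H2-K1, H2-D1 and B2m differed by 0.01, 0.11 and 0.30, none of them called. The 11 class I genes ran from −1.24 (H2-T23) to 1.71 (H2-T22), both uncalled and named here after their values were seen. Of the 11, 4 had an unadjusted p under 0.05 in the limma fit: B2m, H2-T22, H2-T23 and H2-M3.

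Whether the IRF2KO difference under IFNα was the same in the libraries labelled IRF1KO and DKO was tested as (DKO minus IRF1KO) minus (IRF2KO minus WT). It was called for 2 genes, both lower (0.0169%), and 223 genes (1.88%) had an unadjusted p under 0.05. Psmb8 had 174 and 186 TPM in IRF1KO and 127 and 113 TPM in DKO, so that it was lower in DKO than in IRF1KO (−0.59, adjusted p = 0.027), whereas it was higher in IRF2KO than in WT. The difference between the 2 effects was −1.57 ± 0.17 (adjusted p = 0.0015). Of the 7 tested immunoproteasome and PA28 genes, 4 including Psmb8 were called lower in DKO than in IRF1KO, beside 0.473% of all genes. Erap1, the peptidase that trims peptides in the endoplasmic reticulum, had 48.7 and 61.2 TPM in WT, 42.8 and 30.7 TPM in IRF2KO, 34.8 and 43.0 TPM in IRF1KO and 4.16 and 5.77 TPM in DKO. Its groups with 1 or no factor targeted stood far above DKO, and the difference between the effects was −2.17 ± 0.33 (adjusted p = 0.048, and 0.051 with the replicate block). That call was also lost in 6 of 8 leave-one-out fits (−1.94 to −2.33), with the exceptions of those without DKO replicate 2 and without IRF2KO replicate 2. Tap2, at 40.8 and 37.5 TPM in IRF1KO and 3.74 and 3.52 TPM in DKO, had a difference between the effects of −1.92 that was not called (adjusted p = 0.49). The promoters of the 2 called genes are given in the same way.
Psmb8 (chr17:34197945-34198244, plus strand): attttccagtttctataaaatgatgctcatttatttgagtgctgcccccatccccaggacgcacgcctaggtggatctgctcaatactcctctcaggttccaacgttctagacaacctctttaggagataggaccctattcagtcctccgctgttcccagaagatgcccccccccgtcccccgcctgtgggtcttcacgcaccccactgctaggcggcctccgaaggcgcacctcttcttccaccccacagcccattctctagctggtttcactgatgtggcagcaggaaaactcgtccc
Erap1 (chr13:74639603-74639902, plus strand): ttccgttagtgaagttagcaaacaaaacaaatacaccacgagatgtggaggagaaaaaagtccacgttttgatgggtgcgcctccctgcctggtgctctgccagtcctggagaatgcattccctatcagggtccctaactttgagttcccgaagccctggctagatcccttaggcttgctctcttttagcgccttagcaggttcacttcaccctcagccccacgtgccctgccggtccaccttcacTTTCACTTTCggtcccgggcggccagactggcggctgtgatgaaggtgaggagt

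Erap1 held 1 GAAA-NN-GAAA match at −4, across its start site, and Psmb8 held none in this window.

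Of 24 tested genes of the interferon receptor and JAK-STAT signalling and of 11 of the IRF family, none was called in the limma fit, with or without the replicate block, and 3 and 1 had an unadjusted p under 0.05, beside 9.25% of all genes. With 0.971% of all genes called, 0 calls in lists of this size are near the background and are no result about them. Stat2 differed by 0.14 ± 0.26 and Irf9 by 0.08 ± 0.14. Irf1 had 194 and 166 TPM in WT and 160.0 and 140.3 TPM in IRF2KO (−0.26 ± 0.17, adjusted p = 0.72), and Irf7, an amplifier of type I interferon production, differed by −0.18 ± 0.21. Socs1, a feedback inhibitor and the largest difference of its list (1.97 ± 0.89), had 72.9 and 13.8 TPM in WT and 218 and 75.3 TPM in IRF2KO, so the higher WT library lay just below the lower IRF2KO library. Cytokines and chemokines (24 tested), class II presentation (13), constitutive proteasome subunits (17) and cell cycle genes (26) also had 0 calls in the limma fit, with 3, 0, 0 and 2 at an unadjusted p under 0.05. Cxcl10, a chemokine for T cells, had 60.4 and 53.4 TPM in WT and 274 and 116 TPM in IRF2KO and missed the threshold (1.63 ± 0.58, adjusted p = 0.35). Of 20 tested genes of NF-kB feedback and the early LPS response 1 was called, and 2 with the replicate block. With the block, 1.44% of all genes were called higher and 0.701% lower. Ptgs2, the inducible cyclooxygenase, was called in both fits, at 0.31 and 1.34 TPM in WT and 4.82 and 2.80 TPM in IRF2KO (1.43 ± 0.31), and not without IRF2KO replicate 1 (1.12) or without WT replicate 1 (1.01). Of 20 tested GAS-type genes, those typical of interferon gamma, 1 was called, and 3 with the replicate block. The gene called in both fits, Ly6e (0.45 ± 0.10), was not called when any of the 4 libraries was left out (0.40 to 0.50). For the NF-kB and GAS-type lists alike, 1 call in a list of 20 is no result about the list.

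**Figure D4:**
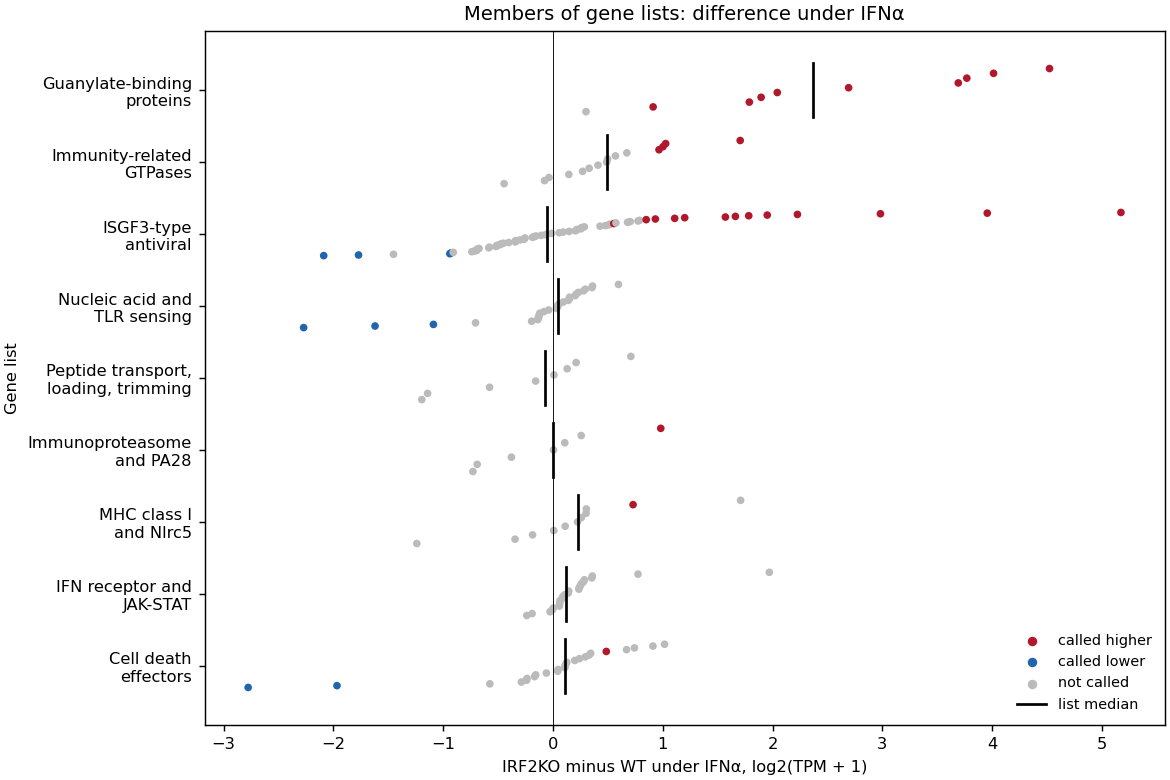
Each point is a tested member of 1 of 9 gene lists, with its IRF2KO minus WT difference under IFNα on log2(TPM + 1) on the x axis, and the bar is the list's median. Guanylate-binding proteins (median 2.37, 9 of 10 higher) stand to the right, ISGF3-type antiviral genes spread from −2.09 to 5.17, and no member of the JAK-STAT list was called.

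The called genes were then read in libraries outside the 2 groups compared. All 24 replicated libraries share the fit's estimate of the spread, so calls in these comparisons are not independent of each other. In media, IRF2KO minus WT had the same sign for 68 of the 74 higher genes, of which 27 were called higher (0.279% of all genes). It had the same sign for all 41 lower genes, of which 32 were called lower (0.557%). Of all tested genes, 38.5% were higher and 61.2% lower in that comparison. The 6 genes of the other sign in media were Ifit2, Trim21, Parp10, Inppl1, Ormdl3 and Pafah2, at −0.43 to −0.01, none of them called. Under IFNα, DKO minus IRF1KO had the same sign for 72 of the 74, with 30 called higher (0.372%), and for all 41 lower genes, with 30 called lower (0.473%). Here 53.4% of all genes were higher and 46.3% lower. The exceptions were Psmb8 and Fam46a (−0.06, not called). Rsad2 had 0.44 and 0.83 TPM in IRF1KO and 23.3 and 22.02 TPM in DKO, and Ifit1 had 7.66 and 9.44 TPM in IRF1KO and 82.3 and 80.1 TPM in DKO. Thus the difference at Rsad2 and Ifit1 was also present in the libraries in which IRF1 was targeted too, at 3.87 and 3.11. Of the 11842 genes tested, 17 were called higher in all 3 comparisons and 28 lower. By definition these are among the 74 and the 41.

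**Figure D5:**
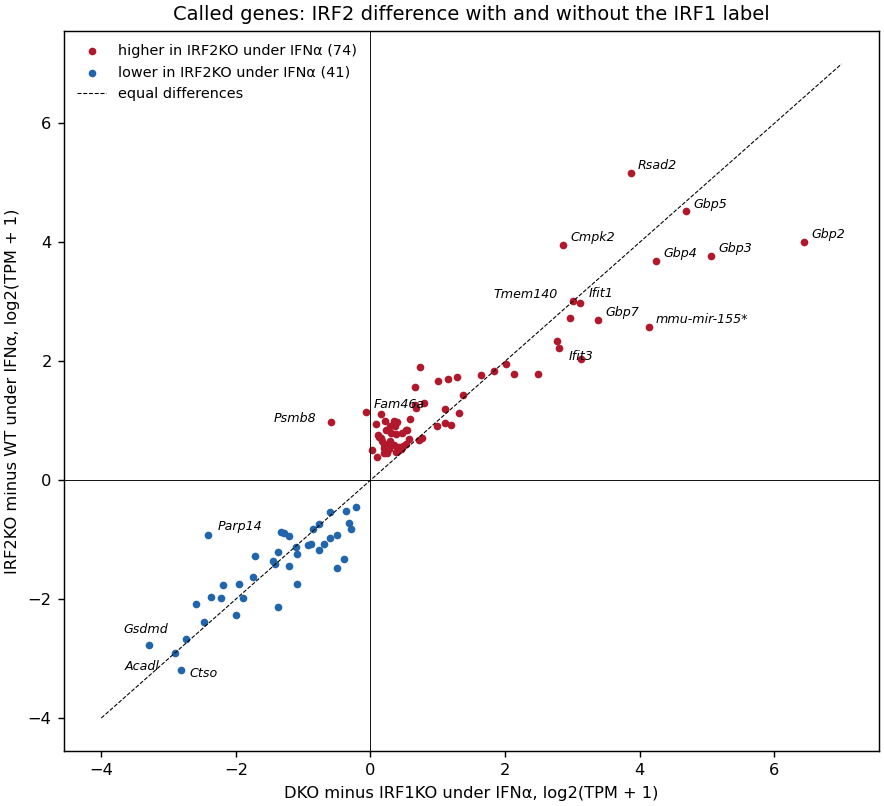
The 115 called genes, with the DKO minus IRF1KO difference under IFNα on the x axis and the IRF2KO minus WT difference under IFNα on the y axis, both on log2(TPM + 1), and a dashed line where the 2 are equal. Of the 115 genes, 113 lie on the same side of 0 on both axes, and the exceptions are Psmb8 (−0.59 and 0.98) and Fam46a (−0.06 and 1.15).

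The single WT and IRF2KO libraries under IFNα allow no test. In them, 72 of the 74 higher genes were above 0 in at least 1 library, 68 had the same sign and 31 differed by at least 1 on log2(TPM + 1), as 0.625% of all genes did in that direction. Of the 41 lower genes 38 were above 0, 37 had the same sign and 12 differed by at least 1, against 0.414% of all genes. Both of these shares are of all 11842 tested genes. Of the 10985 tested genes above 0 in a single library, 49.0% were higher and 50.6% lower in the single IRF2KO library. Rsad2 had 6.59 TPM in WT and 147 TPM in IRF2KO, Ifit1 74.3 and 650.2 TPM, and Gbp2 26.5 and 586 TPM. Ctso had 10.2 TPM in WT and 0.24 TPM in IRF2KO, and Gsdmd 32.2 and 6.8 TPM. Some antiviral genes that fell in the replicated libraries differed little there: Parp14 had 25.9 and 23.3 TPM, Oasl2 37.5 and 36.0 TPM and Nmi 23.9 and 18.4 TPM. The differences of these 3 genes in the replicated libraries were thus larger than in the single ones.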

How the data were processed

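The values analysed are TPM, which the authors deposited in 1 table covering all 30 libraries. The submitters' processing notes name bcl2fastq 2.20, Bowtie 0.12.2 and RSEM, and the builds mm10 and GRCm38 without their roles. Rows with the same symbol were summed (41346 entries, 31427 symbols), the 24 replicated and the 6 single libraries were kept apart, and 0 columns lacked a sample. Values were taken to log2 after adding a pseudocount of 1, and group means of the 12 replicated groups were fitted with limma 3.58.1 (R 4.3.3) and a trended variance. The fit covered 11842 genes that reached 1 TPM in 2 or more of 24 libraries, with 12 residual degrees of freedom (11 with the replicate block). Tests are two-sided, with Benjamini-Hochberg adjustment over the genes of a comparison. A fold change on this scale understates the change of low genes. Fit and calls were tested on simulated data of independent values without pairing, so the test does not cover paired samples. The 200 changed genes were drawn only from genes whose mean log2(TPM + 1) matched at least 5 TPM. Recovery of genes at lower levels was not tested. Of 200 changed genes, 24.5% were recovered at 1.5-fold, 75.3% at 2-fold and 95.7% at 4-fold. False calls averaged 3.3 of 52.3 calls, 8.7 of 159.3 and 14.3 of 205.7.

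Libraries with the same replicate number share a date-like code in their titles, which may pair the samples. The main fit took no account of this pairing. The replicate number entered only as a block in an alternative fit. Same-numbered samples deviated from their group means together (correlation over 0.1) in 56 of 66 group pairs, with a median of 0.233 and a value of 0.205 for IRF2KO and WT under IFNα. A code holds 1 library of a group, which leaves no test within a code. Named genes are the 15 called genes with the largest difference in either direction (higher group at 5 TPM or more on average), up to 6 called members of each of 25 lists, 39 fixed by name and up to 8 per interaction and direction, 67 in all. Some named genes are not reported here. Members and lists were chosen with earlier results of these data known. Positions are from GENCODE mouse release M21 and promoters from RefSeq. Python 3.11.15 with numpy 2.4.6, pandas 2.3.3 and matplotlib 3.10.9 made the summaries and plots. The alternatives changed the pseudocount (0.1 or 5), the filter (none, or a mean of 5 TPM), the scaling (median-ratio or quantile), the variance prior (robust), the block (replicate number) or the samples (compared groups alone, each library left out).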

Additional observations from a re-analysis of the deposited data

Results flagged for a closer look

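For 8 genes the IRF2KO minus WT difference on log2(TPM + 1) was larger under IFNα than in media by a test of the difference itself (limma, adjusted within that comparison). The excess on log2(TPM + 1) was 4.28 for Rsad2 (adjusted p = 5.2e-06), 2.73 for Cmpk2 (0.0020), 2.62 for Gm14446 (0.00023), 2.53 for Ifit1 (0.0022), 2.23 for I830012O16Rik (0.0051), 2.15 for Ifit2 (0.014), 2.04 for Ifit3 (0.033) and 1.36 for Trim21 (0.037). The call was lost in 7 of 8 leave-one-out fits for Trim21, in 6 of 8 for Ifit2 and for Ifit3 and in 1 of 8 for I830012O16Rik. These calls depend on the pseudocount of 1. With a pseudocount of 0.1 none of the 8 was called, and Cmpk2 stood at 0.77. With only the groups of this test in the fit, 1 gene was called, Rsad2. For 2 genes the DKO minus IRF1KO difference under IFNα was lower than the IRF2KO minus WT difference, by −1.57 for Psmb8 (adjusted p = 0.0015) and by −2.17 for Erap1 (0.048, a call lost in 6 of 8 leave-one-out fits). Psmb8 was higher in the libraries labelled IRF2KO than in WT and lower in those labelled DKO than in IRF1KO.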

How the results depend on the processing

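Of the 44 called named genes, 30 kept their call under every alternative with all groups in the fit, and no called gene changed sign. Among uncalled named genes 5 changed sign in 9 values. The counts moved more. Of 74 higher and 41 lower genes, the replicate block gave 171 and 83, the 4 libraries fitted alone (2 residual degrees of freedom) 8 and 2, leaving out 1 library 29 to 68 and 25 to 28, and a mean of at least 5 TPM left 18 lower genes of fewer tested. The share higher was 64.4%, and 58.4% and 58.1% after median-ratio and quantile scaling. For the interaction with IFNα (8 higher, 0 lower), a pseudocount of 0.1 gave 0 higher and one of 5 gave 14 higher and 1 lower, no filter gave 4 lower, its groups alone 1 higher, and leaving out 1 library 4 to 8 higher and 0 to 1 lower. For the interaction with IRF1 (0 higher, 2 lower), a pseudocount of 0.1 gave 1 lower and one of 5 gave 7, no filter gave 1 higher, its groups alone 0 lower, the replicate block 1 lower, and leaving out 1 library 1 to 3 lower. The cause of these shifts was not tested. Apart from the counts and from Tap2, Tapbp, Cd274, Psme1, Cd24a and Erap1 as given above, the block changed no call among the named genes. Depth is unknown, so whether a gene listed at 0 was absent or missed cannot be told apart.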

Other observations

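Other called genes, named here after their values were seen except Arg2, Sept6 and Tmem63a, also differed between the genotypes. Flt1, a receptor of vascular endothelial growth factors, had 11.9 and 14.8 TPM in WT and 51.1 and 48.6 TPM in IRF2KO under IFNα (1.83 ± 0.20, adjusted p = 7.02e-05, limma), and its difference in media was 1.70. Cst7, which encodes cystatin F, an inhibitor of cysteine cathepsins, had 29.6 and 20.3 TPM in WT and 95.6 and 73.9 TPM in IRF2KO (1.74 ± 0.23, adjusted p = 0.00059), yet 137 and 138 TPM in the single WT and IRF2KO libraries. Il17rc, a chain of the interleukin 17 receptor, had 4.84 and 4.52 TPM in WT and 0.57 and 0.32 TPM in IRF2KO (−1.98 ± 0.22). Uchl1, a ubiquitin hydrolase gene, had 3.01 and 3.75 TPM in WT and was listed at 0 in both IRF2KO libraries.

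Arg2, the mitochondrial arginase, had 18.3 and 16.7 TPM in WT and 7.81 and 4.23 TPM in IRF2KO (−1.44 ± 0.21), with −1.80 in media. Sept6, a septin of the cytoskeleton, had 5.07 and 5.44 TPM in WT and 1.89 and 1.29 TPM in IRF2KO (−1.28 ± 0.17). Tmem63a, a membrane channel gene, had 7.87 and 9.19 TPM in WT and 3.42 and 2.82 TPM in IRF2KO (−1.21 ± 0.24), and its call was lost whichever library was left out (−1.10 to −1.32).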
